A study of Danio rerio with 10 samples.

Results

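Aminoacyl-tRNA synthetases are the enzymes that join each amino acid to its tRNA. The members described here are 33 genes, 19 for enzymes of the cytosol and 14 for enzymes of mitochondria. They were found by zebrafish gene name, in a choice made with earlier results of these data known. Of these, 31 were matched to a counted identifier among the 32105 genes of the series, 18 cytosolic and 13 mitochondrial. The cytosolic histidine enzyme *hars* was not matched by name and the mitochondrial alanine enzyme *aars2* was not analysed here. The leucine enzyme *lars1b* was taken as the identifier named *LARS1* and is called so below.

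In the cytosol, charged tRNAs feed the ribosomes that translate nuclear mRNAs, while mitochondria use a separate set of enzymes, also encoded in the nucleus, to translate the few proteins of their own genome. Most amino acids therefore have a pair of genes. In animals several cytosolic enzymes are held together with scaffold proteins in a multi-synthetase complex, and the enzymes fall into class I and class II by the fold of their active site. In mammals many cytosolic synthetase genes are targets of ATF4, a transcription factor of the amino acid and endoplasmic reticulum (ER) stress responses, whereas ATF6 is an ER membrane protein whose cleaved nuclear fragment induces ER chaperones.

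The libraries came from dissected zebrafish livers in which that nuclear fragment, nAtf6, was or was not overexpressed. At 5 days post fertilization (dpf), the nAtf6 TG larvae carried Tg(fabp10:nAtf6-mcherry; cmlc2:EGFP), allele C of the line, and the siblings were wild type, with 3 libraries of 25 pooled livers in each group. At 78 hours post fertilization (hpf), 2 libraries of 20 pooled livers per group were made from larvae that also carried the liver marker Tg(fabp10a:CAAX-EGFP), present in both groups. The *fabp10* promoter drives the transgene in hepatocytes, and transgenic larvae were picked by green fluorescence in the heart. Counts on genes were 17622825 to 22963880 per library at 5 dpf and 4868321 to 6354867 at 78 hpf. Levels below are CPM (the count divided by the library's total on genes and multiplied by 1000000) after TMM scaling within each age, and a count of 3 corresponds to 0.131 to 0.170 CPM at 5 dpf and 0.472 to 0.616 CPM at 78 hpf without that scaling.

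The gene that the transgene carries was examined first. *atf6* had 439, 539 and 542 CPM in nAtf6 TG livers, against 90.4, 96.8 and 77.9 CPM in sibling livers of 5 dpf. At 78 hpf it had 184 and 337 CPM in the libraries deposited under nAtf6 names, against 85.3 and 45.6 CPM in those deposited under sibling names. The groups did not overlap at either age. The titles of the 78 hpf libraries give the opposite assignment, so that the libraries with more *atf6* are the ones titled sibling. The treatment description and the deposited names put them in the nAtf6 group, and the 78 hpf libraries are therefore called filed as nAtf6 and filed as sibling below; taken by title, every 78 hpf direction would turn round. The ER chaperones *hspa5* and *hsp90b1* and the ER thiol isomerase *pdia4*, known ATF6 targets in mammals, were higher at 5 dpf with log2 fold changes of 4.40, 4.62 and 5.62 (edgeR quasi-likelihood test, Benjamini-Hochberg adjusted p = 0.000522, 0.000105 and 6.07e-05). At 78 hpf *hspa5* had 11078 and 15066 CPM in libraries filed as nAtf6, against 2183 and 1210 CPM in those filed as sibling (2.95, edgeR adjusted p = 0.305). *pdia4* had 5268 and 6533 CPM in libraries filed as nAtf6, against 705 and 392 CPM in those filed as sibling (3.43, edgeR adjusted p = 0.221). The 78 hpf groups did not overlap in *hspa5*, *hsp90b1* or *pdia4*, and none of the 3 passed the adjusted test.

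Several libraries stood apart from others of their group. Among the nAtf6 TG libraries of 5 dpf, numbers 2 and 3 were far more alike than either was to number 1 (chi-square per degree of freedom over genes 2.97, against 55.0 and 61.4). Sibling library 2 stood apart from siblings 1 and 3 (84.9 and 89.3, against 13.3 between those) and had a TMM factor of 0.758, against 1.02 to 1.11 in the other 5 dpf libraries. The hepatocyte marker genes (12 of 12 counted in every library) summed to between 79647 and 90160 CPM in nAtf6 TG livers, against between 104998 and 201435 CPM in sibling livers. Exocrine pancreas markers (9 of 9 counted) had a sum between 794 and 1337 CPM in nAtf6 TG livers, against between 1520 and 3453 CPM in sibling livers. Muscle markers (6 of 6 counted) summed to 352, 64.5 and 65.7 CPM in nAtf6 TG livers, against 548, 208 and 572 CPM in sibling livers. In these bulk samples fewer cells of a type and less RNA per cell cannot be told apart, and the part that other cell types had in the synthetase values was not tested.

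At 5 dpf the cytosolic synthetase genes were higher in nAtf6 TG livers as a group and the mitochondrial ones mostly were not. Of the 18 cytosolic members tested, 12 rose, 0 fell and 6 did not pass the test, and all 18 had a positive log2 fold change. Of the 13 mitochondrial members, 2 rose (*ears2* and *wars2*), 0 fell and 11 did not pass. Over all 18470 genes tested, 13.7% rose and 7.48% fell, 21.2% in all, at an adjusted p under 0.05 in edgeR's quasi-likelihood test. The median log2 fold change was 1.22 for the cytosolic members, with a range of 0.15 to 2.93, and 0.15 for the mitochondrial members, with a range of -0.67 to 1.14. Over all genes tested it was -0.04.

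The same library values were also compared gene by gene, which adds no separate evidence. For 12 cytosolic members, the same 12 that were called, every nAtf6 TG library lay above every sibling library. For none did every one lie below. Among mitochondrial members this held for 3 above and 2 below. Over all genes tested, 22.6% had the nAtf6 TG libraries wholly above and 17.2% wholly below.

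**Figure D1:**
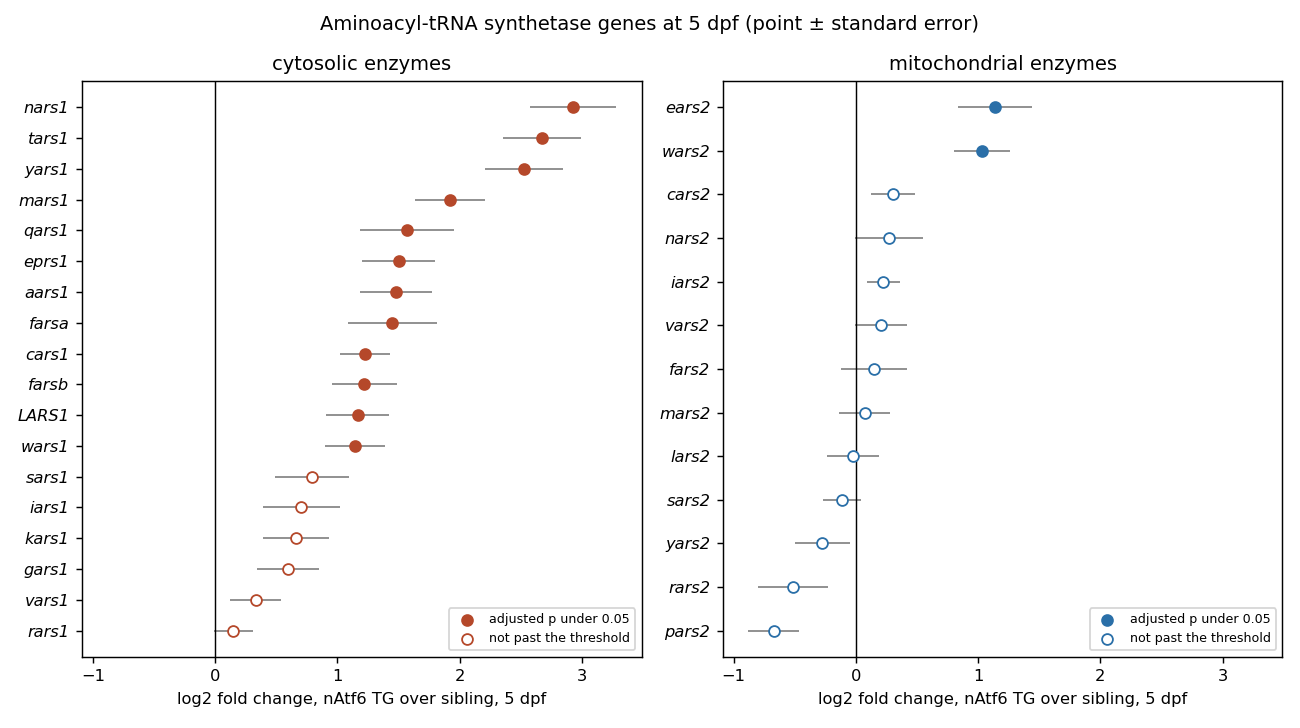
Log2 fold change at 5 dpf (nAtf6 TG over sibling; x axis) of the 18 cytosolic and 13 mitochondrial members, with bars for the standard error; filled points had an adjusted p under 0.05. All 18 cytosolic points lie right of 0, from 0.15 for *rars1* to 2.93 for *nars1*, while the mitochondrial points lie on both sides of 0, with *ears2* and *wars2* apart from the rest.

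The largest changes were in the enzymes for asparagine, threonine and tyrosine, none of which belongs to the multi-synthetase complex. The asparagine enzyme *nars1* (ENSDARG00000061100) had 131, 293 and 306 CPM in nAtf6 TG livers, against 29.3, 37.7 and 28.9 CPM in sibling livers, a log2 fold change of 2.93 (SE 0.35, edgeR adjusted p = 0.00188). The threonine enzyme *tars1* (ENSDARG00000013250) had 216, 416 and 414 CPM in nAtf6 TG livers, against 46.2, 67.8 and 49.7 CPM in sibling livers (2.68, SE 0.32, edgeR adjusted p = 0.00174). For the tyrosine enzyme *yars1* (ENSDARG00000035913) the values were 80.3, 170.0 and 173 CPM in nAtf6 TG livers, against 21.8, 28.3 and 23.4 CPM in sibling livers (2.53, SE 0.32, edgeR adjusted p = 0.0024). In each of the 3 genes the lowest nAtf6 TG library, number 1, was still well above the highest sibling library, and libraries 2 and 3 were close to each other.

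The methionine and cysteine enzymes also rose. *mars1* (ENSDARG00000034396), a complex member that charges both initiator and elongator methionine tRNA, had 40.9, 77.2 and 83.6 CPM in nAtf6 TG livers, against 19.2, 18.7 and 15.4 CPM in sibling livers (1.92, SE 0.29, edgeR adjusted p = 0.00458). *cars1* (ENSDARG00000036164), for cysteine, had 24.6, 35.6 and 39.8 CPM in nAtf6 TG livers, against 14.0, 15.1 and 13.6 CPM in sibling livers (1.23, SE 0.20, edgeR adjusted p = 0.00706). Its sibling libraries lay within a narrow band and the nAtf6 TG libraries were all above it. *nars1*, *tars1*, *yars1*, *mars1* and *cars1* were the 5 cytosolic members that passed the test whichever of the 6 libraries was left out. They also passed when nAtf6 TG libraries 2 and 3 were summed into 1. Over all genes, calls went from 3913 to between 1361 and 7598 with 1 library left out, and to 1417 with the 2 summed. The share of all called genes that kept their call throughout was not computed. Which members kept theirs therefore cannot be read as particular to the synthetases.

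The other 7 called cytosolic members passed with all 6 libraries, but each was called in only 2 of the 6 fits with 1 library left out. None of these 7 was called with nAtf6 TG libraries 2 and 3 summed, which were far more alike than either was to library 1. *aars1* (alanine) had 193, 372 and 378 CPM in nAtf6 TG livers, against 99.8, 135 and 103 CPM in sibling livers (1.48, SE 0.30, edgeR adjusted p = 0.0137). *eprs1*, the fused glutamate and proline enzyme of the complex, had 75.2, 160.4 and 151 CPM in nAtf6 TG livers, against 47.4, 49.3 and 39.6 CPM in sibling livers (1.50, SE 0.30, edgeR adjusted p = 0.0137). *qars1* (glutamine), also of the complex, had 38.0, 89.7 and 89.5 CPM in nAtf6 TG livers, against 19.3, 34.3 and 19.7 CPM in sibling livers (1.57, SE 0.39, edgeR adjusted p = 0.0284). Its nAtf6 TG library 1 and sibling library 2 nearly touched, and those of *eprs1* and *aars1* were further apart.

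Both subunits of the phenylalanine enzyme rose. The alpha subunit *farsa* had 25.7, 66.1 and 69.0 CPM in nAtf6 TG livers, against 17.7, 22.8 and 18.4 CPM in sibling livers (1.45, SE 0.36, edgeR adjusted p = 0.0308). The beta subunit *farsb* had 27.7, 51.6 and 52.4 CPM in nAtf6 TG livers, against 16.5, 21.2 and 18.8 CPM in sibling livers (1.22, SE 0.27, edgeR adjusted p = 0.0193). Both showed the same order of libraries, with nAtf6 TG library 1 closest to the siblings. *LARS1* (leucine, complex) had 49.4, 72.3 and 78.6 CPM in nAtf6 TG livers, against 25.6, 38.8 and 24.9 CPM in sibling livers (1.17, SE 0.26, edgeR adjusted p = 0.0198). The paralog *lars1a*, named here after its values were seen, gave 1.17 (SE 0.25, edgeR adjusted p = 0.0185), and since reads shared by the paralogs were not measured, both values are uncertain. *wars1* (tryptophan) had 11.9, 18.9 and 21.8 CPM in nAtf6 TG livers, against 7.35, 9.23 and 7.34 CPM in sibling livers (1.14, SE 0.25, edgeR adjusted p = 0.0182), with no overlap.

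The 6 cytosolic members that did not pass had overlapping groups. The serine enzyme *sars1* had 82.5, 139.6 and 142 CPM in nAtf6 TG livers, against 53.1, 96.1 and 61.3 CPM in sibling livers (0.79, SE 0.30, edgeR adjusted p = 0.104). *vars1* (valine) had 48.2, 62.5 and 59.6 CPM in nAtf6 TG livers, against 36.7, 56.3 and 42.4 CPM in sibling livers (0.33, SE 0.21, edgeR adjusted p = 0.289). *rars1* (arginine, complex) had 28.2, 35.8 and 36.6 CPM in nAtf6 TG livers, against 29.9, 29.6 and 31.5 CPM in sibling livers (0.15, SE 0.16, edgeR adjusted p = 0.535). In *rars1* nAtf6 TG library 1 was the lowest of all 6 libraries. *gars1* (glycine), *iars1* (isoleucine, complex) and *kars1* (lysine, complex; in animals 1 gene for cytosol and mitochondria, as is *gars1*) lay between, at 0.60 to 0.70.

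**Figure D2:**
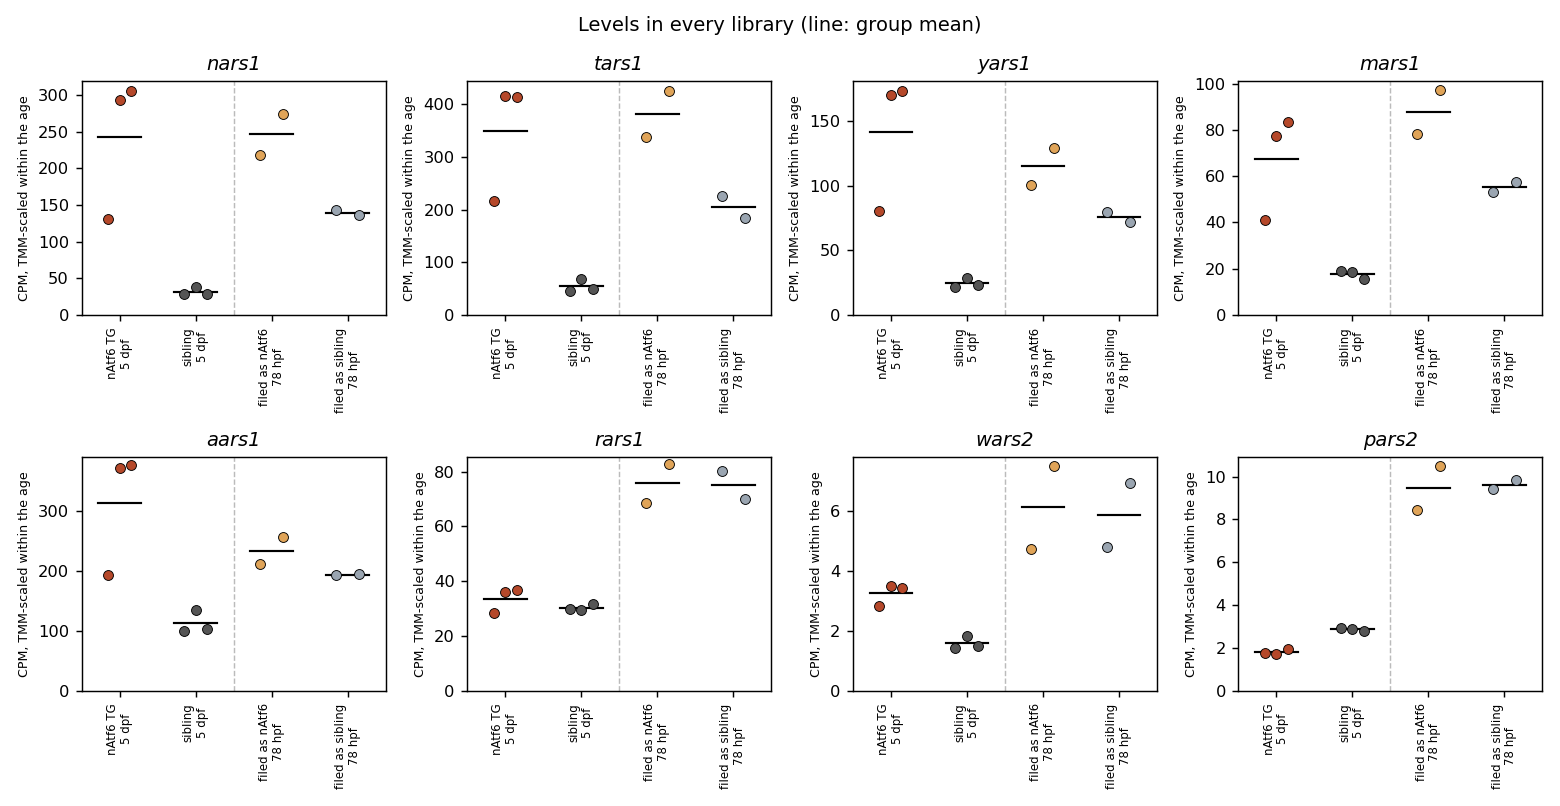
CPM (TMM-scaled within the age; y axis, from 0) of 8 members in each of the 10 libraries, with nAtf6 TG and sibling livers of 5 dpf left of the dashed line and the libraries of 78 hpf filed as nAtf6 and as sibling right of it; horizontal lines are group means. At 5 dpf *nars1*, *tars1*, *yars1*, *mars1* and *aars1* have nAtf6 TG library 1 between the siblings and the other nAtf6 TG libraries, *rars1* overlaps, *wars2* is higher and *pars2* lies lower without passing the test.

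The number of calls depended on the libraries more than the direction did. Omitting number 2 or 3 of the nAtf6 TG libraries, or number 1 or 3 of the sibling libraries, left 5 cytosolic members called in each of these 4 fits, in which 5.62% to 6.62% of all genes tested rose. With nAtf6 TG library 1 omitted 16 were called, and with sibling library 2 omitted 15 were, while 17.4% and 19.4% of all genes tested rose in these fits (28.6% and 37.9% called in either direction). The 4 fits with 5 cytosolic calls had 0 mitochondrial calls, whereas omitting nAtf6 TG library 1 gave 3 (*ears2*, *wars2* and *nars2*) and omitting sibling library 2 gave 6, of which 5 were higher and *pars2* was lower (-0.65, edgeR adjusted p = 0.0427). All 18 cytosolic log2 fold changes stayed positive in each of these fits and their median lay between 1.104 and 1.461. nAtf6 TG library 1 was the lowest of the nAtf6 TG libraries in 18 of 18 cytosolic members and in 6 of 13 mitochondrial members, and sibling library 2 was the highest sibling in 16 of 18 and 8 of 13. The shares of all genes with these orders were not computed, so the counts cannot be read as particular to the members. Without TMM scaling the cytosolic sum of sibling library 2 was 709 CPM, against 758 and 774 CPM in siblings 1 and 3. Its mitochondrial sum was then 91.7 CPM, against 101 and 99.7 CPM, so its high rank depends in part on its TMM factor of 0.758.

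By role, the changes were spread over the known groupings. The share of all genes tested that rose at 5 dpf was 13.7%. Of the 7 members of the multi-synthetase complex, 4 rose, with a median log2 fold change of 1.17. Among the 11 cytosolic members outside it, 8 rose, with a median of 1.23. Of 9 cytosolic class I enzymes 6 rose (median 1.17) and of 8 class II enzymes 5 rose (median 1.33), with *eprs1*, which holds both classes, left out of this split. The difference between these groupings was not tested.

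Among mitochondrial enzymes, those for glutamate and tryptophan were the ones called. *ears2* (ENSDARG00000103099) had 2.82, 5.21 and 5.34 CPM in nAtf6 TG livers, against 1.79, 1.77 and 2.49 CPM in sibling livers (1.14, SE 0.31, edgeR adjusted p = 0.0385). *wars2* (ENSDARG00000011801) had 2.82, 3.51 and 3.42 CPM in nAtf6 TG livers, against 1.43, 1.83 and 1.50 CPM in sibling livers (1.03, SE 0.23, edgeR adjusted p = 0.0198). In both genes the groups did not overlap. Both lost the call in the same 4 fits with 1 library omitted as the 7 cytosolic members that lost theirs. At the other end, *pars2* (proline) had 1.76, 1.699 and 1.92 CPM in nAtf6 TG livers, against 2.91, 2.90 and 2.79 CPM in sibling livers (-0.67, SE 0.21, edgeR adjusted p = 0.0563). *rars2* (arginine) had 1.33, 0.931 and 0.941 CPM in nAtf6 TG livers, against 1.75, 1.36 and 1.46 CPM in sibling livers (-0.51, SE 0.29, edgeR adjusted p = 0.236). The nAtf6 TG libraries of both genes lay wholly below the siblings, and neither passed the test. For *rars2* the gap was narrow, with 25 counts in nAtf6 TG library 1 and 23 in sibling library 2. It rests on the TMM factor of that sibling (0.758). In fits restricted to genes with at least 10 counts in every library *pars2* did pass (-0.70, edgeR adjusted p = 0.0339).

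The remaining mitochondrial members were close to 0. *nars2* (asparagine) had 3.52, 7.07 and 6.71 CPM in nAtf6 TG livers, against 5.11, 4.38 and 4.85 CPM in sibling livers (0.27, SE 0.28, edgeR adjusted p = 0.508). *yars2* (tyrosine) had 2.08, 2.79 and 2.52 CPM in nAtf6 TG livers, against 3.14, 2.54 and 3.26 CPM in sibling livers (-0.28, SE 0.22, edgeR adjusted p = 0.403). *sars2* (serine) had 8.90, 7.84 and 7.61 CPM in nAtf6 TG livers, against 7.93, 9.41 and 9.06 CPM in sibling livers (-0.12, SE 0.15, edgeR adjusted p = 0.616). All 3 overlapped between the groups. *cars2*, *fars2*, *iars2*, *lars2*, *mars2* and *vars2* had log2 fold changes of -0.03 to 0.30, of which only *iars2* (0.22, SE 0.13) had groups that did not overlap.

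Set side by side for the same amino acid, the cytosolic enzyme had the larger log2 fold change in 14 of 14 pairs at 5 dpf, with *eprs1* and *fars2* each entering 2 pairs. The difference was widest for tyrosine (2.80 on the log2 scale, *yars1* over *yars2*) and narrowest for tryptophan (0.11, *wars1* over *wars2*), with a median of 1.00. For asparagine it was 2.66, for proline 2.18 and for serine 0.91. The tryptophan difference was smaller than the standard error of either change (0.25 and 0.23). So was the valine difference (0.13, against 0.21 and 0.21). The glutamate difference (0.37) was little above the standard errors of its changes (0.30 and 0.31). A standard error of the differences themselves was not computed. The ratio of the pair's levels within a library, which no scaling between libraries affects, lay wholly higher in nAtf6 TG than in sibling livers in 6 of the 14 pairs (cysteine, proline, leucine, methionine, asparagine and tyrosine). Pairs of serine, tryptophan and the others overlapped. Of single genes tested, 22.6% lay wholly above, and the share for ratios of other gene pairs was not computed.

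**Figure D3:**
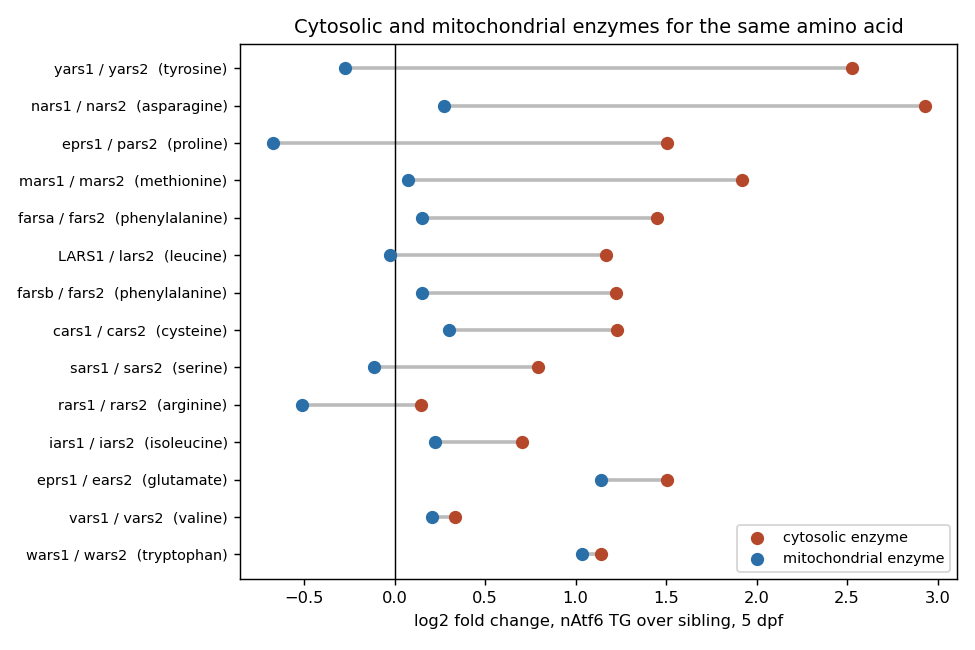
Log2 fold change at 5 dpf (nAtf6 TG over sibling; x axis) of the cytosolic and the mitochondrial enzyme for the same amino acid, joined by a grey line and ordered by their difference. The cytosolic point lies to the right in all 14 pairs, by 0.11 for tryptophan and by 2.80 for tyrosine.

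Summed over the members, the cytosolic enzymes had 1308, 2473 and 2504 CPM in nAtf6 TG livers, against 682, 935 and 700 CPM in sibling livers, a ratio of means of 2.71. The mitochondrial enzymes had 112, 114 and 116 CPM in nAtf6 TG livers, against 90.9, 121 and 90.2 CPM in sibling livers, a ratio of means of 1.13. Within each library the cytosolic sum was 11.7, 21.7 and 21.5 times the mitochondrial sum in nAtf6 TG livers, against 7.50, 7.73 and 7.75 times in sibling livers. Sibling libraries were nearly equal in this ratio, including library 2, and every nAtf6 TG library lay above them, library 1 least. These sums weigh longer transcripts more and describe libraries, not the relative abundance of the enzymes. Without TMM scaling sibling library 2 had the lowest cytosolic and mitochondrial sums of the siblings (709 and 91.7 CPM).

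**Figure D4:**
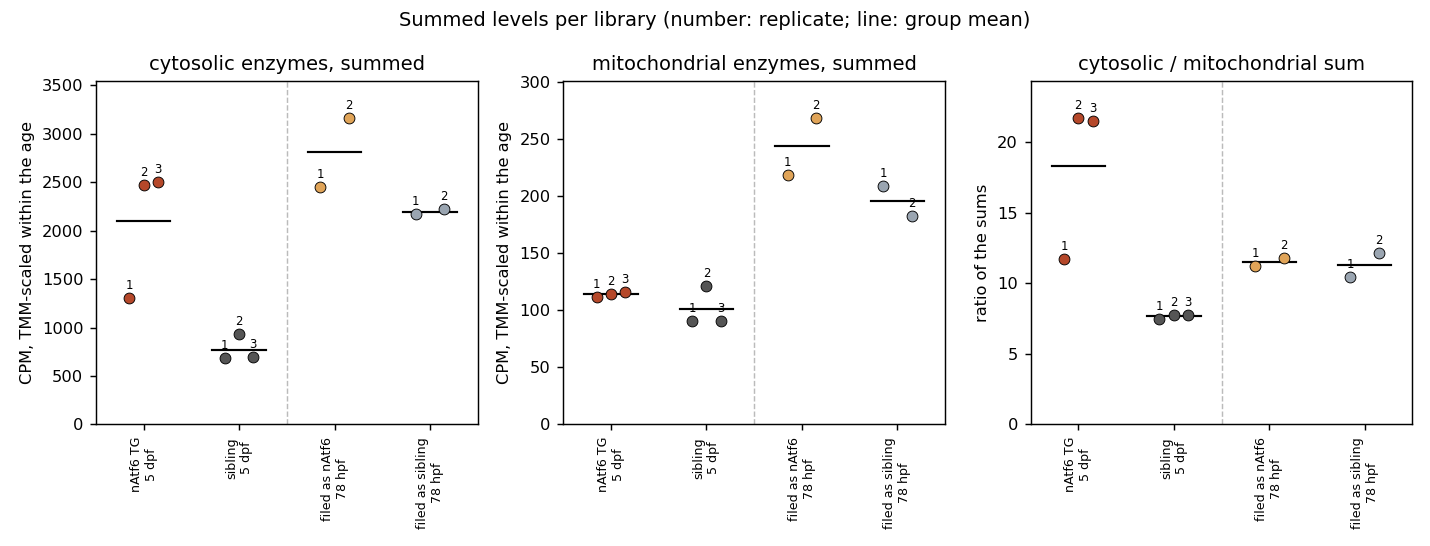
Summed CPM (TMM-scaled within the age) of the cytosolic members, of the mitochondrial members and the ratio of the sums in each library, numbered by replicate, with group means as lines; libraries of 5 dpf are left of the dashed line and those of 78 hpf right of it. At 5 dpf the ratio is at least 11.7 in every nAtf6 TG library and at most 7.75 in every sibling library, while at 78 hpf the groups overlap.

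Genes that act beside the synthetases gave mixed counts at 5 dpf. Of 17 other genes of tRNA charging, 6 rose (35.3%) and 1 fell, against 13.7% and 7.48% of all genes tested. Their median log2 fold change was 0.55. *gatc*, a subunit of the mitochondrial amidotransferase that makes glutaminyl-tRNA, rose by 1.53 (SE 0.20, edgeR adjusted p = 0.00281), *prorsd1*, a prolyl-tRNA editing domain protein, by 1.30 (SE 0.21, edgeR adjusted p = 0.0063) and the peptidyl-tRNA hydrolase *ptrh2* by 0.95 (SE 0.18, edgeR adjusted p = 0.0119). The gene that fell was *sepsecs*, an enzyme of selenocysteinyl-tRNA synthesis, at -0.88 (SE 0.20, edgeR adjusted p = 0.023), named after its value was seen. An identifier named *hars2* in the name table was in this list at 1.14 (edgeR adjusted p = 0.0328).

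Of 25 genes of the amino acid response in mammals, 15 rose (60%) and 0 fell at 5 dpf, against 13.7% and 7.48% of all genes tested. Their median log2 fold change was 1.08, and the list was chosen with earlier results of these data known. *psph*, the last step of serine synthesis, had 43.9, 62.8 and 74.0 CPM in nAtf6 TG livers, against 5.15, 4.14 and 4.29 CPM in sibling livers (3.73, SE 0.25, edgeR adjusted p = 0.000179). *pycr1a*, of proline synthesis, had 101, 149 and 151 CPM in nAtf6 TG livers, against 13.4, 15.7 and 12.1 CPM in sibling livers (3.28, SE 0.23, edgeR adjusted p = 0.000215). *ddit3*, which encodes the stress factor Chop, had 21.6, 37.9 and 38.3 CPM in nAtf6 TG livers, against 8.33, 7.39 and 8.85 CPM in sibling livers (1.99, SE 0.25, edgeR adjusted p = 0.00217). In all 3 genes nAtf6 TG library 1 was the lowest of its group, an order whose share over all genes was not computed. Every nAtf6 TG library lay above every sibling in these 3 genes, as in 12 of the 18 cytosolic synthetases and 22.6% of all genes tested. At 78 hpf, 11 of the 23 genes of this list that were tested had a positive log2 fold change, with a median of -0.01, and 0 were called (edgeR, 2 at an unadjusted p under 0.05).

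Other parts of the translation machinery were mostly not called, as was true of all genes tested (21.2% called). None of the 8 cytosolic elongation factor genes tested passed (edgeR), with 1 (*eef1db*, named after its value was seen) at an unadjusted p under 0.05 and a median of -0.15. Among 83 genes of mitochondrial ribosomes and translation factors, 7 rose (8.43%) and 2 fell, against 13.7% and 7.48% of all genes tested. Their median log2 fold change was 0.12. The ribosomal protein genes *mrpl28* (1.48, SE 0.19, edgeR adjusted p = 0.00274) and *mrps9* (1.35, SE 0.22, edgeR adjusted p = 0.00629) rose, and *mrps22* fell (-0.65, SE 0.14, edgeR adjusted p = 0.0165). The other gene that fell, named after its value was seen, was the release factor *mtrf1* (-1.30, SE 0.31, edgeR adjusted p = 0.026).

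At 78 hpf no synthetase gene, cytosolic or mitochondrial, passed the test between libraries filed as nAtf6 and filed as sibling. Nor did any of the 14555 genes tested (0% higher, 0% lower and 0% in all), of which 869 had an unadjusted p under 0.05 in edgeR; DESeq2 called 188 genes, 0 of them members. All 18 cytosolic members and 12 of 13 mitochondrial members had a positive log2 fold change, against 47.8% of all genes tested. The medians were 0.28 for cytosolic and 0.28 for mitochondrial members. Groups did not overlap for 9 cytosolic and 5 mitochondrial members (*ears2*, *fars2*, *iars2*, *sars2* and *vars2*), each time with the libraries filed as nAtf6 higher. Over all genes, 19.9% had those libraries wholly above and 19.3% wholly below.

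The largest 78 hpf values were again in the enzymes for threonine, asparagine, methionine and tyrosine. *tars1* had 338 and 425 CPM in libraries filed as nAtf6, against 226 and 183 CPM in those filed as sibling (0.90, SE 0.26, edgeR adjusted p = 0.774). *nars1* had 218 and 275 CPM in libraries filed as nAtf6, against 143 and 136 CPM in those filed as sibling (0.82, SE 0.24, edgeR adjusted p = 0.782). *mars1* had 78.2 and 97.0 CPM in libraries filed as nAtf6, against 53.1 and 57.6 CPM in those filed as sibling (0.66, SE 0.22, edgeR adjusted p = 0.814). These 3 were the cytosolic members with an unadjusted p under 0.05, and their groups did not overlap. *yars1* had 101 and 129 CPM in libraries filed as nAtf6, against 79.3 and 71.7 CPM in those filed as sibling (0.61, SE 0.24, edgeR adjusted p = 0.814), also with no overlap. *wars2* gave 0.06 (SE 0.43) and *pars2* -0.03 (SE 0.29), each with overlapping groups.

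Much of the common direction at 78 hpf came with 1 library. Library 2 filed as nAtf6 was the highest of the 4 in 18 of 18 cytosolic and 10 of 13 mitochondrial members. The share of all genes in which it was the highest was not computed, so this order cannot be read as particular to the synthetases. The same library had a summed exocrine pancreas marker level of 5724 CPM, against 172 CPM in library 1 filed as nAtf6 and 49.6 and 26.7 CPM in the libraries filed as sibling, where *ptf1a* was at 0 counts. Without it, 11 of 18 cytosolic and 7 of 13 mitochondrial members were positive, with medians of 0.05 and 0.18, while *tars1* remained at 0.74, *nars1* at 0.67, *mars1* at 0.52 and *yars1* at 0.43. Hepatocyte markers summed to 54696 and 57877 CPM in libraries filed as nAtf6, against 100931 and 35537 CPM in those filed as sibling. Muscle markers summed to 718 and 50.3 CPM in libraries filed as nAtf6, against 999 and 5045 CPM in those filed as sibling. For erythrocyte markers the sums were 86.7 and 202 CPM, against 77.4 and 936 CPM. The part of these other tissues in the synthetase values was not tested.

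At 78 hpf, with 2 libraries per group, no separation of the cytosolic from the mitochondrial enzymes was seen. Whether the separation differed between the ages was not tested as such, and the test of single genes is given below. Cytosolic members summed to 2451 and 3164 CPM in libraries filed as nAtf6, against 2173 and 2221 CPM in those filed as sibling. Mitochondrial members summed to 218 and 268 CPM in libraries filed as nAtf6, against 208 and 183 CPM in those filed as sibling. The ratio of the sums was 11.2 and 11.8 in libraries filed as nAtf6, against 10.4 and 12.2 in those filed as sibling, and the groups overlapped. The cytosolic enzyme had the larger log2 fold change in 7 of 14 pairs.

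**Figure D5:**
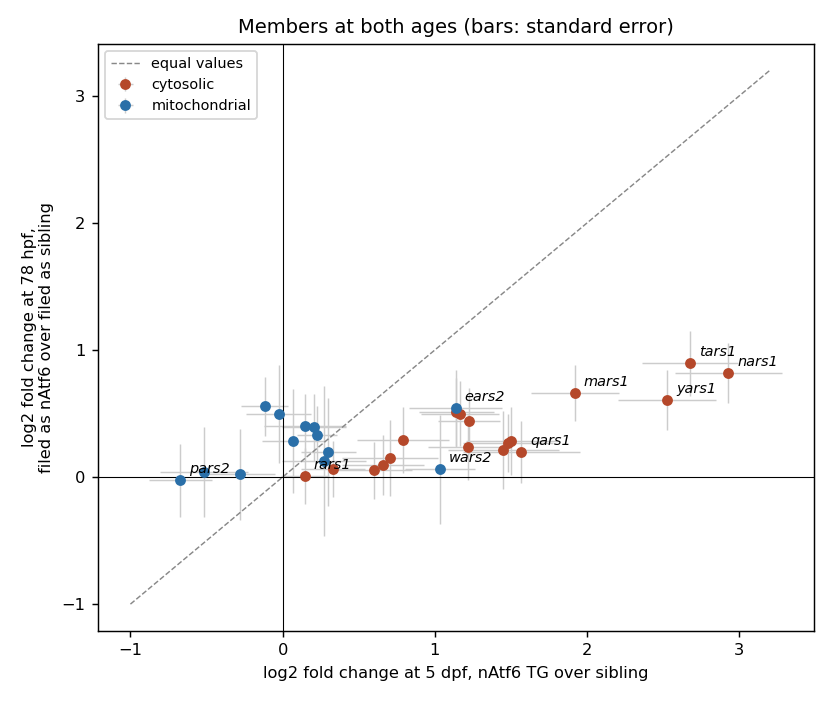
Log2 fold change of each member at 5 dpf (nAtf6 TG over sibling; x axis) against 78 hpf (filed as nAtf6 over filed as sibling; y axis), with standard errors and a dashed line of equal values. The cytosolic members reach 2.93 at 5 dpf and 0.90 at 78 hpf and lie below the line; *nars1*, *tars1*, *yars1* and *mars1* are farthest right.

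The difference between the ages was tested itself, in 1 model over all 10 libraries, as the 78 hpf log2 fold change minus that of 5 dpf. Of 20595 genes tested, 14 were called (0.068%, all lower at 78 hpf, and 0% higher), and 0 members were among them. At an unadjusted p under 0.05 (edgeR) were 7 of 31 members, against 2726 of the 20595 genes tested. All 18 cytosolic differences were negative, with a median of -0.74, and 11 of 13 mitochondrial ones were positive, with a median of 0.35. Of the differences over all genes tested, 53.1% were positive, with a median of 0.06. By DESeq2, 9 of the 13 mitochondrial differences were positive. *nars1* had -1.96 (SE 0.51, edgeR adjusted p = 0.167), *yars1* -1.78 (SE 0.48, edgeR adjusted p = 0.185) and *tars1* -1.64 (SE 0.49, edgeR adjusted p = 0.226). For the 25 amino acid response genes the median difference was -1.03, with 0 called and 12 at an unadjusted p under 0.05 (edgeR). *atf6*, *hspa5*, *hsp90b1* and *pdia4* had a median difference of -1.49, with 0 of 4 positive and 0 called (edgeR). A smaller change at 78 hpf was thus not particular to the synthetases, and the part of the transgene's own response in it was not tested. By DESeq2, *nars1*, *yars1* and *tars1* were called, among 572 of all genes (2.78%). Taking the 78 hpf groups by title instead, 11 members were called, 10 of them cytosolic, among 1786 of all genes (8.67%). Age, cross and library preparation differed together and cannot be told apart.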

How the data were processed

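The authors deposited raw whole-number counts of reads for 32105 Ensembl genes in each of 10 libraries. The submitters' processing notes name FastQC 0.11.5, Trimmomatic, TopHat2 2.1.0, HTSeq and DESeq2 for 5 dpf, CASAVA, MultiQC 1.7, HTSeq and DESeq2 for 78 hpf, and the build GRCz10; the 78 hpf aligner, the annotation release and the strand setting are not given in the sources used here. The protocol of the 5 dpf libraries names rRNA depletion while other labels name polyA RNA. Entries that name no gene held 35.3% to 47.4% of the reads in 78 hpf libraries and entered neither totals nor tests.

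Tests used edgeR 4.0.16 under R 4.3.3 (filterByExpr, TMM, quasi-likelihood test, 2-sided, Benjamini-Hochberg adjustment over all genes tested, threshold 0.05), within each age and for the difference between the ages. DESeq2 1.42.0 was an alternative, beside other scalings, filters, blocks and leaving out each library. The fits were tested on simulated data. Titles of 78 hpf give clutch numbers, which pair libraries across groups. Same-numbered 78 hpf libraries correlated at -0.13 after removal of group means, and crossed ones at 0.13. With 2 libraries per group these deviations mirror each other, so the value cannot decide on the pairing. Titles of 5 dpf give numbers not stated to mark a clutch. Correlations there were 0.12, 0.09 and -0.10 for like numbers and -0.12 to 0.12 for unlike ones. The p-values of 5 dpf therefore measure the spread between these libraries only.

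Symbols came from a table naming 26269 identifiers. Members and lists were chosen with earlier results of these data known. Named with full values were members past the threshold at 5 dpf (at most 12 by size), the 2 largest and 2 smallest changes per class and both enzymes of tryptophan, tyrosine, asparagine and serine, which together take in all 14 members that passed; other lists gave up to 3 genes by adjusted p. Exceptions are marked as chosen after their values were seen, apart from *hars2* and *ptf1a*, which are named outside this rule without a mark. Promoter and protein sequences, planned for motif counts, were not used here. Muscle markers were matched for 6 of 9 names, erythrocyte markers for 6 of 9 and exocrine pancreas markers for 9 of 15. Intervals around counts are not given; a floor of 3 counts covers counting error only.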

Additional observations from a re-analysis of the deposited data

How the results depend on the processing

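At 5 dpf, 10 of 31 members kept direction and side of the threshold under every alternative, and at 78 hpf 17 of 31 did; the cause of the changes below was not tested. With 1 library left out at 5 dpf, all genes called ranged from 1361 to 7598 (main 3913), cytosolic members from 5 to 16 (main 12) and mitochondrial members from 0 to 6 (main 2). The split of all calls was 64.7% higher, and 51.2% to 82.9% with 1 library left out. With nAtf6 TG libraries 2 and 3 summed, an alternative chosen after seeing the data, 1417 genes (81.5% higher), 5 cytosolic and 0 mitochondrial members were called. Scaling by library size only gave 14 cytosolic and 1 mitochondrial member (73.6% of all calls higher). At 78 hpf the counts were 188 genes by DESeq2, 117 in the model of all 10 libraries, 1 when every library had to hold at least 10 counts and 8 without a filter, with 0 members in each. Calls for the difference between the ages were 1786 genes and 11 members with groups by title, 572 and 3 by DESeq2, 77 genes with at least 10 counts and 0 with the replicate block (main 14).

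The fit with the replicate block called 3128 genes at 5 dpf, with 12 cytosolic and 2 mitochondrial members, and 0 genes at 78 hpf (611 at an unadjusted p under 0.05); it changed no member's call at either age. Crossed clutch numbers at 78 hpf, chosen after seeing the correlation, also gave 0 genes (1293 unadjusted).

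Direction turned for members near 0. At 5 dpf *lars2* was 0.053 with library size only, 0.037 with libraries summed and 0.050 without a filter, and -0.15 to 0.17 with 1 library left out, where *fars2* ran from -0.036 to 0.55 and *mars2* from -0.074 to 0.27. At 78 hpf *rars1* was -0.021 and *yars2* -0.013 with at least 10 counts, *yars2* -0.0074 with library size only, and *pars2* 0.13 with all 10 libraries and 0.013 without a filter. With 1 library left out at 78 hpf the ranges were -0.055 to 0.48 for *farsa*, -0.052 to 0.19 for *gars1*, -0.046 to 0.42 for *iars1*, -0.050 to 0.26 for *kars1*, -0.011 to 0.41 for *qars1*, -0.11 to 0.18 for *rars1* and -0.041 to 0.20 for *vars1*. Among mitochondrial members they were -0.23 to 0.87 for *cars2*, -0.055 to 0.80 for *mars2*, -0.32 to 0.93 for *nars2*, -0.17 to 0.14 for *pars2*, -0.22 to 0.43 for *rars2*, -0.27 to 0.37 for *wars2* and -0.24 to 0.28 for *yars2*.

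The 78 hpf libraries hold 4868321 to 6354867 counts on genes, against 17622825 to 22963880 at 5 dpf, and each 78 hpf group has 2 libraries. Where 1 of 2 libraries was left out, the lone library was assumed to vary like the other group.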
